A study of Mus musculus with 6 samples.

Results

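The genes described here are 7 enzymes of cholesterol synthesis, *Hmgcs1*, *Mvd*, *Idi1*, *Fdft1*, *Sqle*, *Lss* and *Cyp51*, in interscapular brown adipose tissue (BAT). They were chosen by symbol, and each symbol matched 1 of the 47729 genes in the deposited tables. None of the 7 is a gene of cholesterol uptake, and uptake genes are given below only as a separate list of the pathway. BAT came from wild type male C57BL/6J mice, 3 fed a standard rodent diet (low-fat diet, LFD) and 3 fed a 45% high-fat diet (HFD), from 6 to 10 weeks of age, a feeding period of 4 weeks. Each library came from 1 mouse, numbered below by its replicate number in the labels, and the mice sequenced were those at the top, middle and bottom of their diet group in fat mass. Total RNA was depleted of ribosomal RNA, and reads were single-end and 75 bases long. The diets were compared to ask how diet-induced obesity alters gene expression in BAT.

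Cholesterol is built from acetyl-CoA in a chain of enzymes of the cytosol and the endoplasmic reticulum. Its genes are classic targets of the transcription factor SREBP-2, which is released from the endoplasmic reticulum when sterols are low and which binds sterol regulatory elements, often beside sites for the factor NF-Y. Brown adipocytes can also take up cholesterol from lipoproteins, so that synthesis is one of several supplies. In the order of the pathway, *Hmgcs1* encodes the cytosolic HMG-CoA synthase, which joins acetyl-CoA and acetoacetyl-CoA. *Mvd* encodes mevalonate diphosphate decarboxylase and *Idi1* the isomerase of the isoprenoid unit it makes. *Fdft1* (squalene synthase) commits isoprenoids to sterols, *Sqle* adds oxygen to squalene, *Lss* closes the ring to lanosterol and *Cyp51* removes a methyl group from lanosterol.

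Promoter sequences are shown because the enzymes are known to share control elements. RefSeq windows of 300 bases (250 before and 50 after the gene start, GRCm38.p6) were found for 5 members and were not used here for *Fdft1* and *Sqle*. The letters TCACNCCAC (a sterol regulatory element core), CCAAT (the NF-Y box) and GGGCGG (the GC box) were searched on both strands. The stretches below end before the first annotated transcript start. Capitals mark the sterol element core and the NF-Y boxes, which read ATTGG where they lie on the opposite strand. *Hmgcs1* (chr13:119690101-119690350, plus strand) is the member with the higher mean on HFD, and *Mvd* (chr8:122443423-122443672, minus strand) and *Lss* (chr10:76531355-76531587, plus strand) stand for the others.
Hmgcs1: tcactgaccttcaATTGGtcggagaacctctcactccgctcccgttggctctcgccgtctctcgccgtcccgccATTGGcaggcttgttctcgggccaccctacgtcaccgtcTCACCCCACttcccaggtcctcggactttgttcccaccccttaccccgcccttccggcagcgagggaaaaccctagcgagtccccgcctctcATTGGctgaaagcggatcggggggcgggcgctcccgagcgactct
Mvd: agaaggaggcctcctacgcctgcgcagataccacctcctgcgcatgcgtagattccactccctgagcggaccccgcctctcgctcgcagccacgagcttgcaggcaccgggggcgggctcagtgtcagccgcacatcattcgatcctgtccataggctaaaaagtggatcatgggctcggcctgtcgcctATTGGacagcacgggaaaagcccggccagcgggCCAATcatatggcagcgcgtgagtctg
Lss: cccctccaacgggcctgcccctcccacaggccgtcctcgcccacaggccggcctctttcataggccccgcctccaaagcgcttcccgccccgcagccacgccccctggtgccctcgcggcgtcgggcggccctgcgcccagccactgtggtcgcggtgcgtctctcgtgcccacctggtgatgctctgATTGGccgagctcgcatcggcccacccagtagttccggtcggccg
The *Hmgcs1* window held the core once, as TCACCCCAC, and it was absent as these letters from the windows of *Mvd*, *Idi1*, *Lss* and *Cyp51*. Of 32851 promoter windows of the same length, 1.24% held the core. The NF-Y box was found 4 times in the *Hmgcs1* window (3 in the stretch shown). It was found 2 times in each of *Mvd* and *Idi1* and 1 time in each of *Lss* and *Cyp51*. Of all windows, 37.4% held at least 1 NF-Y box, 11.7% at least 2 and 3.37% at least 3. The GC box was found 3 times in *Hmgcs1*, 2 times in *Lss* and 1 time in each of the other 3. At least 1 GC box was held by 35.7% of all windows, at least 2 by 19.5% and at least 3 by 10.7%. These matches describe letters and are not shown to be bound, and no 2 of them overlapped. Other forms of the sterol element were not searched, and a link between these letters and the levels below was not tested.

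In BAT of HFD-fed mice, 6 of the 7 enzymes had a lower and *Hmgcs1* a higher mean level than in LFD-fed mice, and no member passed the test (relative to the mean of 12 brown adipocyte genes, all 7 were lower). The median log2 fold change (HFD over LFD) of the 7 was -0.78, against -0.05 over all 17668 genes tested, and 54.4% of all genes tested were below 0. LFD replicate 1 held the highest value of the 6 mice in *Mvd*, *Idi1*, *Fdft1*, *Sqle*, *Lss* and *Cyp51*. How far the lower levels rested on that mouse depended on the scale. Without it the median in edgeR's fit (TMM-scaled counts) was 0.28. In that fit 3 of the 7 genes were lower on HFD, as were 9808 of all 18392 genes tested. In TPM (a level scaled for transcript length, without TMM factors) 6 of the 7 had a lower mean, with a median difference of -0.25 in log2(TPM + 1). The share of all genes lower in TPM without that mouse is not given here. With all mice, 11.6% of all genes tested were lower on HFD with no overlap in TPM and 1.65% higher, against 9.23% and 6.72% in log2 CPM. In TPM without that mouse the differences of *Sqle* (5.53 on HFD, 5.62 on LFD) and *Lss* (9.36 and 9.78) were small, and those of *Fdft1* (6.90 and 11.8), *Cyp51* (13.1 and 21.1), *Mvd* (3.31 and 4.88) and *Idi1* (11.96 and 14.4) were larger. The fold changes given below without that mouse are those of edgeR's fit and keep HFD replicate 1, the mouse of the same number. With both mice numbered 1 left out, chosen after seeing the data, the median was -0.03. The level of *Hmgcs1* relative to the other 6 enzymes did not overlap between diets. This ratio was chosen after the values were seen and was not tested.

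Total rounded counts were 17156991 to 21603487 per mouse, and members had 69 to 6981 counts. A called gene had an adjusted p under 0.01 and a log2 fold change beyond 1.5 in either direction. By edgeR's quasi-likelihood test 0 of 17668 genes (0%) were called, beside 1851 genes (10.5%) at an unadjusted p under 0.05, 3.86% higher and 6.62% lower in HFD-fed mice. DESeq2 called 412 genes, 106 higher (0.355%) and 306 lower (1.02%) of the 29856 with a count, and no member was among them. None of the 7 members reached an unadjusted p under 0.05 by edgeR. With same-numbered mice as a block, *Hmgcs1* and *Cyp51* did, with edgeR adjusted p-values of 0.155 and 0.283. The block also took the other genes of the pathway lists under that level from 5 to 14 of 54, and all genes tested from 1851 to 3094. Libraries differed in marker genes of cell types. *Ucp1*, the uncoupling protein that defines brown adipocytes, had 2728, 4021 and 796 TPM in HFD mice 1 to 3, against 443, 11.03 and 76.0 TPM in LFD mice 1 to 3, so that the defining marker of the labelled tissue was low in LFD replicates 2 and 3. *Acta1*, the actin of skeletal muscle, had 8.30, 37.9 and 0.68 TPM in HFD mice 1 to 3, against 872, 2336 and 486 TPM in LFD mice 1 to 3. Over 20 skeletal muscle genes, the mean log2 CPM (counts scaled for library size) was -0.53 to 3.48 on HFD and 6.35 to 9.31 on LFD, 1 of the 20 (*Myh7*) was at 0 in at least 1 mouse, and 18 of the 20 were lower on HFD with no overlap, against 9.23% of all genes tested. Over 12 brown adipocyte genes, none at 0 in any mouse, the mean was 6.07 to 7.74 on HFD and 4.55 to 6.997 on LFD. The list was divided, with 8 genes higher and 4 lower on HFD and log2 fold changes from -1.19 to 3.67 (*Ucp1*). Of the 12, 2 were higher on HFD with no overlap, against 6.72% of all genes, and 0 were lower, against 9.23%. The part of these differences in the results below was not tested. In whole tissue, fewer cells of a type and less RNA per cell cannot be told apart.

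*Hmgcs1* (ENSMUSG00000093930, GRCm38 chromosome 13 from 119690379 to 119708260), the first enzyme of the set, was by far the most abundant member. It had 100.9, 115 and 58.1 TPM in HFD mice 1 to 3, against 74.7, 52.2 and 41.6 TPM in LFD mice 1 to 3. HFD replicate 3 lay below LFD replicate 1, so the diets overlapped, while HFD exceeded LFD in each of the 3 pairs with the same replicate number, as in 21.1% of all genes tested on the log2 CPM scale. The means were 91.4 ± 29.7 TPM (SD, n = 3) and 56.2 ± 16.9 TPM (SD, n = 3). The log2 fold change was 0.84 (SE 0.59), a 1.79-fold higher level in HFD-fed mice, with an adjusted p of 0.711 by edgeR's quasi-likelihood test. The exact two-sided permutation test on log2 CPM gave p = 0.2, where 3 mice against 3 allow no p below 0.1. Without LFD replicate 1 the log2 fold change was 1.55 (edgeR adjusted p = 0.278), and without HFD replicate 1 it was 0.45. Relative to the mean of the brown adipocyte list it was -0.62, so its direction depended on the scaling.

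The next steps make and rearrange the isoprenoid unit. *Mvd* (ENSMUSG00000006517, chromosome 8 from 122433601 to 122443422) was the least abundant member, with 2.35, 2.56 and 5.02 TPM in HFD mice 1 to 3, against 7.85, 4.94 and 4.81 TPM in LFD mice 1 to 3. In TPM, HFD replicate 3 lay inside the range of the LFD-fed mice, and the other 2 HFD-fed mice lay below all of them. In log2 CPM, HFD replicate 1 (2.34) lay above LFD replicate 3 (2.27). The log2 fold change was -0.79 (SE 0.53, edgeR adjusted p = 0.691). *Idi1* (ENSMUSG00000058258, chromosome 13 from 8885501 to 8892451) stood at 13.8, 10.8 and 11.4 TPM in HFD mice 1 to 3, against 36.2, 16.4 and 12.4 TPM in LFD mice 1 to 3. The HFD-fed mice lay close together and the LFD-fed mice spread widely, with LFD replicate 1 far above the rest. Its log2 fold change of -0.67 (SE 0.67, edgeR adjusted p = 0.821) became 0.39 without LFD replicate 1, while that of *Mvd* became -0.08. *Idi1* was also the member with the largest uncertainty in sharing reads with other genes, an RSEM posterior SD of 1.24% to 2.89% of its count, against 0% to 1.88% in the other members.

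Squalene is made and oxidized by the next pair of enzymes. *Fdft1* (ENSMUSG00000021273, chromosome 14 from 63145150 to 63179578) stood at 5.98, 6.61 and 8.11 TPM in HFD mice 1 to 3, against 21.7, 15.5 and 8.07 TPM in LFD mice 1 to 3. In TPM, LFD replicates 1 and 2 stood above every HFD-fed mouse and LFD replicate 3 was level with HFD replicate 3. In log2 CPM, LFD replicate 3 (3.73) lay below every HFD-fed mouse (3.83 to 4.38). Its log2 fold change was -1.09 (SE 0.57, edgeR adjusted p = 0.570), the smallest p-value of the set. Leaving out LFD replicate 3 gave -1.50 (edgeR adjusted p = 0.142) and leaving out LFD replicate 1 gave -0.27. *Sqle* (ENSMUSG00000022351, chromosome 15 from 59315077 to 59331192), a known control point of sterol synthesis, had 3.99, 4.87 and 7.74 TPM in HFD mice 1 to 3, against 10.2, 4.03 and 7.22 TPM in LFD mice 1 to 3. The diets were mixed in their order, with 2 of 3 same-numbered pairs higher in the HFD-fed mouse. The log2 fold change of *Sqle* was -0.33 (SE 0.53, edgeR adjusted p = 0.910), and 0.46 without LFD replicate 1.

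The sterol ring is closed and trimmed by the last pair. *Lss* (ENSMUSG00000033105, chromosome 10 from 76531588 to 76557138) stood at 9.58, 10.5 and 7.97 TPM in HFD mice 1 to 3, against 45.6, 11.3 and 8.24 TPM in LFD mice 1 to 3. LFD replicate 1 was far above the rest, and the other 2 LFD-fed mice were within 1 TPM of HFD-fed mice. In CPM the value of LFD replicate 1 was 4.31 times that of LFD replicate 2 and 9.09 times that of LFD replicate 3. The log2 fold change of -1.12 (SE 0.78, edgeR adjusted p = 0.714) became 0.28 without LFD replicate 1. *Cyp51* (ENSMUSG00000001467, chromosome 5 from 4081145 to 4104746) stood at 11.3, 10.7 and 17.4 TPM in HFD mice 1 to 3, against 29.3, 18.7 and 23.5 TPM in LFD mice 1 to 3. On the TPM scale the HFD values were lower with no overlap, as in 11.6% of all genes tested (1.65% were higher with no overlap), whereas on the log2 CPM scale HFD replicate 1 (5.02) lay above LFD replicates 2 and 3 (4.92 and 4.96). *Cyp51* was the member that was lower in the HFD-fed mouse of all 3 same-numbered pairs on both scales, as in 21.3% of genes on the log2 CPM scale. Its log2 fold change was -0.78 (SE 0.43, edgeR adjusted p = 0.600), and -0.21 without LFD replicate 1.

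**Figure D1:**
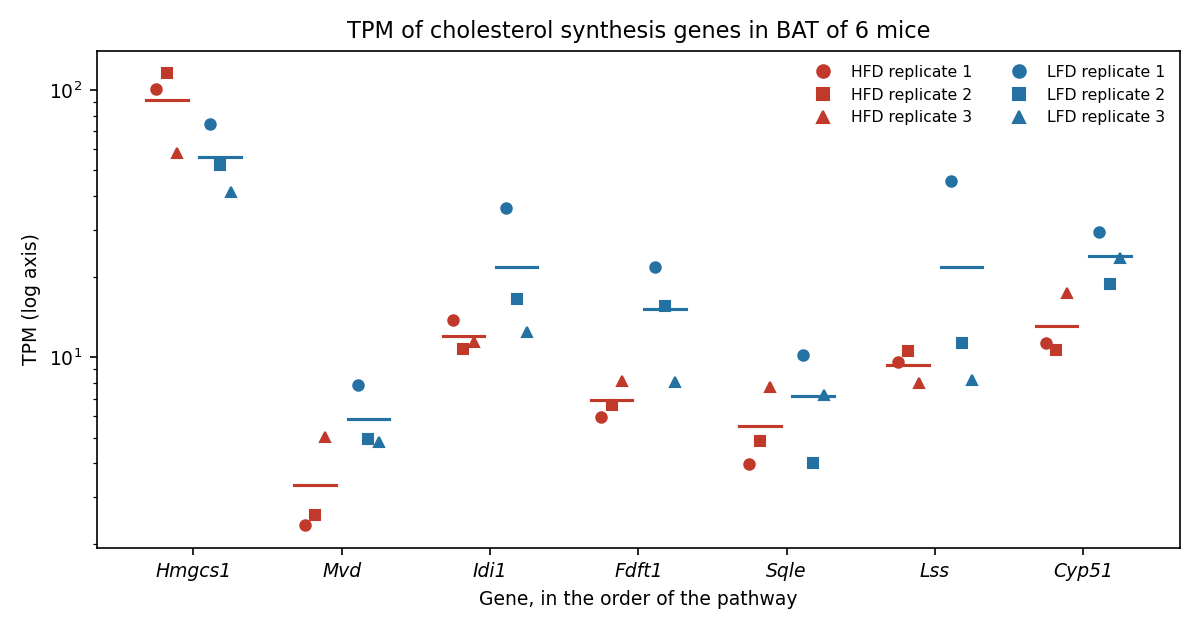
TPM (log axis) of the 7 genes in each mouse, with red symbols for HFD-fed and blue for LFD-fed mice, the symbol shape for the replicate number and a line for the mean of 3 mice. LFD replicate 1 was the highest mouse in every gene but *Hmgcs1*, where HFD replicate 2 reached 115 TPM.

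The order of the levels was much alike in both diets. In HFD-fed mice the mean fell from *Hmgcs1* (91.4 TPM) through *Cyp51* (13.1), *Idi1* (11.96), *Lss* (9.36), *Fdft1* (6.90) and *Sqle* (5.53) to *Mvd* (3.31). Of these neighbours, *Hmgcs1* and *Cyp51* did not overlap between mice, nor did *Idi1* and *Lss*, and the other 4 neighbouring pairs did. In LFD-fed mice the mean TPM was 56.2 for *Hmgcs1*, 23.8 for *Cyp51*, 21.7 for each of *Lss* and *Idi1*, 15.1 for *Fdft1*, 7.14 for *Sqle* and 5.87 for *Mvd*, and only *Hmgcs1* was clear of its neighbour. The mean of *Hmgcs1* was 6.98 times that of *Cyp51* on HFD and 2.36 times on LFD.

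*Hmgcs1* took a larger share of the enzymes' summed level in HFD-fed mice. Its share of the summed TPM of the 7 genes was 68.3%, 71.5% and 50.2% in HFD replicates 1, 2 and 3 and 33.1%, 42.4% and 39.3% in LFD replicates 1, 2 and 3. The diets did not overlap, with means of 63.3% ± 11.5 (SD, n = 3) and 38.3% ± 4.71 (SD, n = 3). The summed TPM of the 7 genes overlapped between diets. It was 147.8, 161 and 116 in HFD and 226, 123 and 106 in LFD replicates 1, 2 and 3. Without *Hmgcs1* the sum of the other 6 was 46.0 to 57.6 TPM on HFD and 64.3 to 150.8 TPM on LFD. In TPM, 11.6% of all genes tested were lower on HFD with no overlap and 1.65% were higher. In mean log2 CPM the other 6 overlapped, at 3.60 to 4.24 on HFD and 3.61 to 5.69 on LFD. Their difference between the diet means on that scale was 0.10 without LFD replicate 1. On the log2 scale, *Hmgcs1* exceeded the mean of the other 6 by 4.39, 4.52 and 3.14 in HFD and by 2.38, 2.72 and 2.65 in LFD replicates 1, 2 and 3. The difference between the diet means, 1.43, was 1.33 without LFD replicate 1. The share within a mouse does not depend on how libraries are scaled, and it shows unequal change and not which of the genes changed. This ratio was chosen after the values were seen, and no test was made of it. *Ucp1* had its 3 highest values in the same 3 mice that had the 3 highest ratios, the HFD-fed mice. Within the HFD-fed mice *Ucp1* in TPM and the ratio had the same order, highest in replicate 2 and lowest in replicate 3. In log2 CPM *Ucp1* was highest in HFD replicate 1 (12.38, against 12.24 in replicate 2). Within the LFD-fed mice *Ucp1* was highest in replicate 1, where the ratio was lowest. The part of brown adipocyte content in the ratio was not tested.

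**Figure D2:**
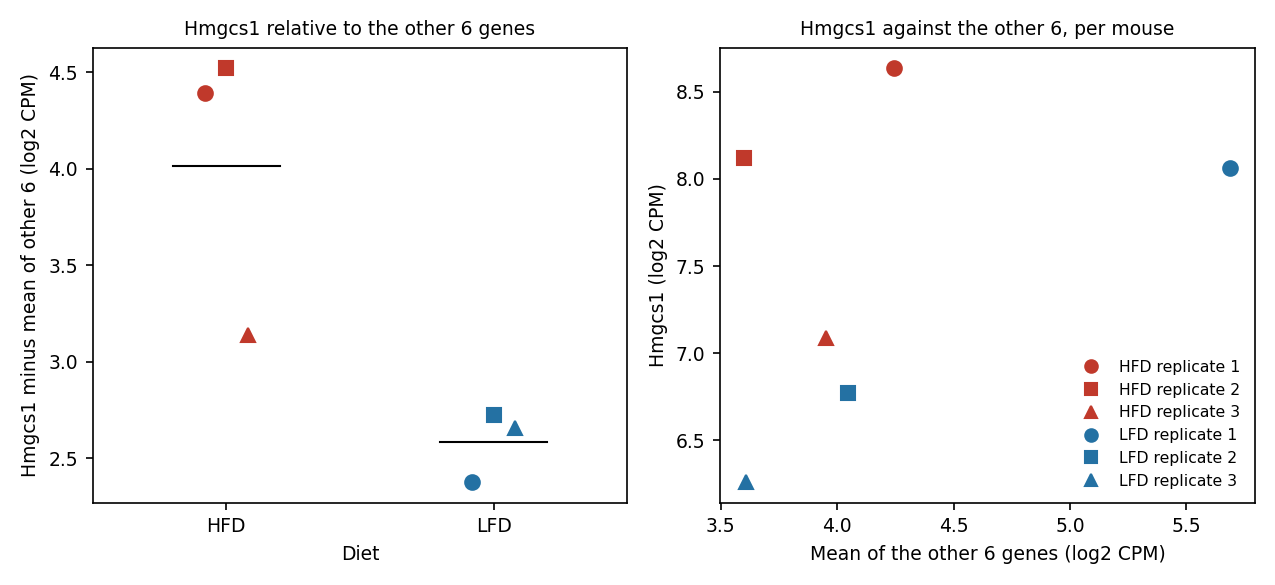
Left, the log2 CPM of *Hmgcs1* minus the mean log2 CPM of the other 6 enzymes by diet, with 1 point per mouse and a line for the mean, 4.02 on HFD and 2.58 on LFD. Right, *Hmgcs1* against the mean of the other 6 in each mouse (log2 CPM), where LFD replicate 1 lies far to the right at 5.69.

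LFD replicate 1 was the highest LFD-fed mouse in all 7 members. On the log2 CPM scale this mouse exceeded the mean of the other 2 LFD-fed mice by 1.299 (*Cyp51*) to 2.64 (*Lss*) in the 6 enzymes other than *Hmgcs1*, and by 1.55 in *Hmgcs1*. It was the highest of all mice in 6 of 7 members, as it was in 27.9% of all genes tested. The range among LFD-fed mice was 1.17 (*Hmgcs1*) to 4.28 (*Fdft1*) times the range among HFD-fed mice, so every member varied less among HFD-fed mice on this scale. LFD replicate 1 also had the fewest genes above 0 counts (23005), the lowest TMM normalization factor (0.745) and the highest brown adipocyte mean of the LFD-fed mice (6.997). Its skeletal muscle genes took 1.01% of the counts, between the 0.370% of LFD replicate 3 and the 2.69% of LFD replicate 2. HFD replicate 1 also exceeded the mean of the other 2 HFD-fed mice in all 7 members, by 0.09 (*Sqle*) to 1.03 (*Hmgcs1*) in log2 CPM. It had the next fewest genes above 0 counts (23614) and the next lowest TMM factor (0.815). Fits without LFD replicate 1 alone thus keep HFD replicate 1 with no mouse of the same number.

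**Figure D3:**
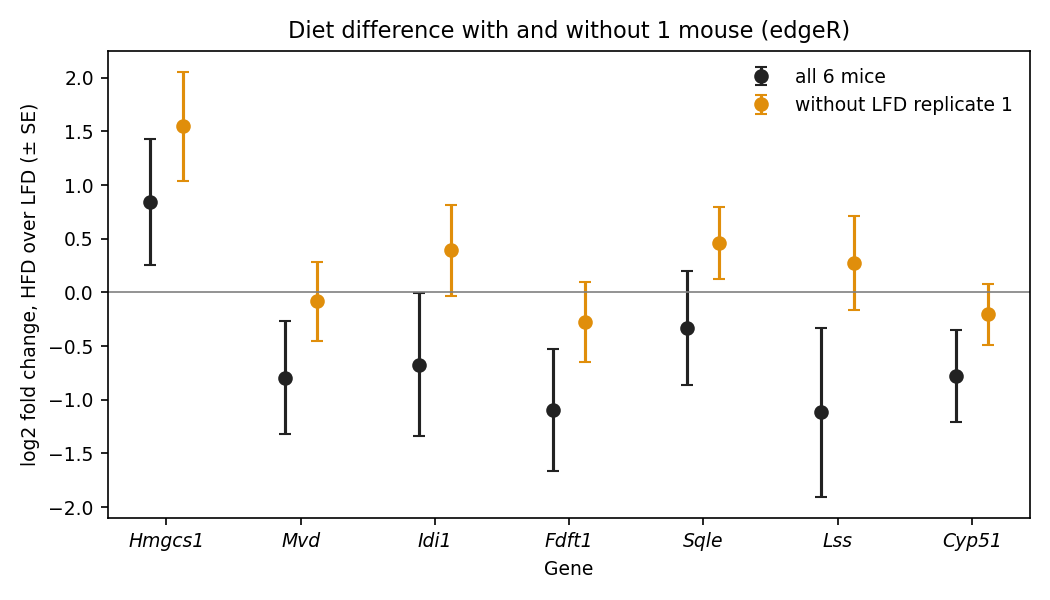
Log2 fold change (HFD over LFD, bars for the standard error) from edgeR's quasi-likelihood fit of TMM-scaled counts with all 6 mice (black) and without LFD replicate 1 (orange). Leaving out this mouse moved *Lss* from -1.12 to 0.28 and *Hmgcs1* from 0.84 to 1.55.

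By Pearson's r over the 6 mice, 9378 genes with a mean of at least 10 CPM were compared with the mean log2 CPM of the 7 members. The 5 most like it were *Pfdn5*, *Tspo*, *Jagn1*, *Rnf14* and *Yme1l1*, with r between 0.994 (*Yme1l1*) and 0.999 (*Pfdn5*), picked as the highest of that many. These values describe 6 mice of which 1 stands apart, and all 5 genes had their highest value in LFD replicate 1. *Tspo*, a protein of the outer mitochondrial membrane that binds cholesterol, had a log2 CPM of 7.32, 6.86 and 6.96 in HFD and of 8.06, 6.98 and 6.60 in LFD replicates 1, 2 and 3. Their log2 fold changes lay between -0.33 (*Rnf14*) and -0.07 (*Yme1l1*), with edgeR adjusted p-values from 0.850 to 0.961.

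The remaining synthesis genes were also highest in LFD replicate 1 for the most part. Of 15 such genes, all were tested, 13 had a lower and 2 a higher mean in HFD-fed mice, and 0 were called or reached an unadjusted p under 0.05, against 10.5% of all genes. Their median log2 fold change was -0.32, and 0.23 without LFD replicate 1, which held the highest value in 13 of the 15. *Tm7sf2*, a sterol reductase, had 4.02, 5.07 and 3.52 TPM in HFD mice 1 to 3, against 16.6, 10.5 and 4.95 TPM in LFD mice 1 to 3, with a log2 fold change of -1.47 (SE 0.69, edgeR adjusted p = 0.525) and of -0.39 without LFD replicate 1. *Pmvk*, which phosphorylates phosphomevalonate just before the step of *Mvd*, had 25.8, 20.0 and 16.3 TPM in HFD mice 1 to 3, against 117, 32.2 and 19.1 TPM in LFD mice 1 to 3. The log2 fold change was -1.46 (SE 0.91, edgeR adjusted p = 0.662), and 0.25 without LFD replicate 1. *Nsdhl* and *Sc5d*, enzymes of the late sterol steps, had log2 fold changes of -1.29 and -1.25 (edgeR adjusted p = 0.690 and 0.756), and of 0.17 and 0.24 without LFD replicate 1.

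Of 16 regulators of the pathway, 11 had a lower and 5 a higher mean on HFD, and the median log2 fold change was -0.20, with 0 called and 0 at an unadjusted p under 0.05, against 10.5% of all genes. *Srebf1*, which encodes the SREBP-1 factors of fatty acid and sterol genes, had 103.4, 139 and 103.2 TPM in HFD mice 1 to 3, against 515, 387 and 128 TPM in LFD mice 1 to 3. LFD replicates 1 and 2 were far above the HFD-fed mice and LFD replicate 3 was within their range. Its log2 fold change was -1.55 (SE 0.67, edgeR adjusted p = 0.490), and -0.71 without LFD replicate 1. *Insig1*, whose protein holds the SREBP complex in the endoplasmic reticulum, had 77.1, 67.2 and 35.5 TPM in HFD mice 1 to 3, against 277, 174 and 41.7 TPM in LFD mice 1 to 3. Its log2 fold change of -1.40 (SE 0.91, edgeR adjusted p = 0.680) was -0.21 without LFD replicate 1. *Insig2* (-0.49) and *Nfya* (0.50), a subunit of NF-Y, had edgeR adjusted p-values of 0.694 and 0.642.

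Uptake and lysosomal genes were divided in direction. Of 13 genes, 7 had a higher and 6 a lower mean on HFD, and the median log2 fold change was 0.01, with 0 called and 2 at an unadjusted p under 0.05, against 10.5% of all genes. In log2 CPM 3 of the 13 were higher on HFD with no overlap and 0 were lower, against 6.72% and 9.23% of all genes tested. *Lipa*, the lysosomal lipase that frees cholesterol from its esters, had a log2 CPM of 8.44, 8.53 and 8.33 in HFD and of 6.48, 6.62 and 7.45 in LFD replicates 1, 2 and 3. HFD values were higher with no overlap on this scale, as in 6.72% of all genes tested, while in TPM HFD replicate 1 (96.1) lay below LFD replicate 3 (103.2). The log2 fold change was 1.52 (SE 0.34, edgeR adjusted p = 0.191), and DESeq2 gave an adjusted p of 0.00110, the only gene of these lists it called. *Stard3*, a carrier of cholesterol from late endosomes, was also higher in each HFD-fed mouse in log2 CPM but overlapped between diets in TPM, with a log2 fold change of 0.82 (SE 0.33, edgeR adjusted p = 0.462). *Lrp8*, a receptor of the LDL receptor family, had a log2 fold change of 0.59 (SE 1.19, edgeR adjusted p = 0.932) and overlapped between diets. LFD replicate 3, its highest mouse, set that value, which was 3.03 without it (edgeR adjusted p = 0.177). That fit rests on few counts of *Lrp8*, 2 and 23 in LFD replicates 1 and 2.

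Of 10 genes of efflux, esterification and oxysterol formation, 6 had a higher and 4 a lower mean on HFD, and the median log2 fold change was 0.24, with 0 called and 3 at an unadjusted p under 0.05, against 10.5% of all genes. *Apoe*, an apolipoprotein that carries exported cholesterol, had 1137, 1058 and 959 TPM in HFD mice 1 to 3, against 2198, 3303 and 2641 TPM in LFD mice 1 to 3. The diets did not overlap in TPM or log2 CPM, where 11.6% and 9.23% of all genes tested were lower on HFD with no overlap. The log2 fold change was -1.08 (SE 0.45, edgeR adjusted p = 0.473). *Nceh1* hydrolyses cholesterol esters in macrophages and *Ch25h* makes an oxysterol. Both were higher in each HFD-fed mouse in log2 CPM but overlapped between diets in TPM. In log2 CPM 3 of the 10 genes were higher on HFD with no overlap and 1 was lower, against 6.72% and 9.23% of all genes tested. Genes with no overlap were named by rule. Their log2 fold changes were 1.59 (SE 0.69) and 1.85 (SE 0.77), with edgeR adjusted p-values of 0.490 and 0.476. *Ch25h* had few counts, 32, 47 and 129 in HFD and 4, 13 and 36 in LFD replicates 1, 2 and 3. Averaged over 12 macrophage markers, log2 CPM was 7.17 to 7.71 on HFD and 5.86 to 7.41 on LFD, with 3 of the 12 higher and 1 lower with no overlap (6.72% and 9.23% of all genes tested), none at 0 in any mouse, and the part of these cells was not tested. The mean of the T and NK cell list (12 of 13 genes tested, none of the 13 at 0 in any mouse) was 0.87 to 1.52 on HFD and -1.19 to 0.06 on LFD.

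**Figure D4:**
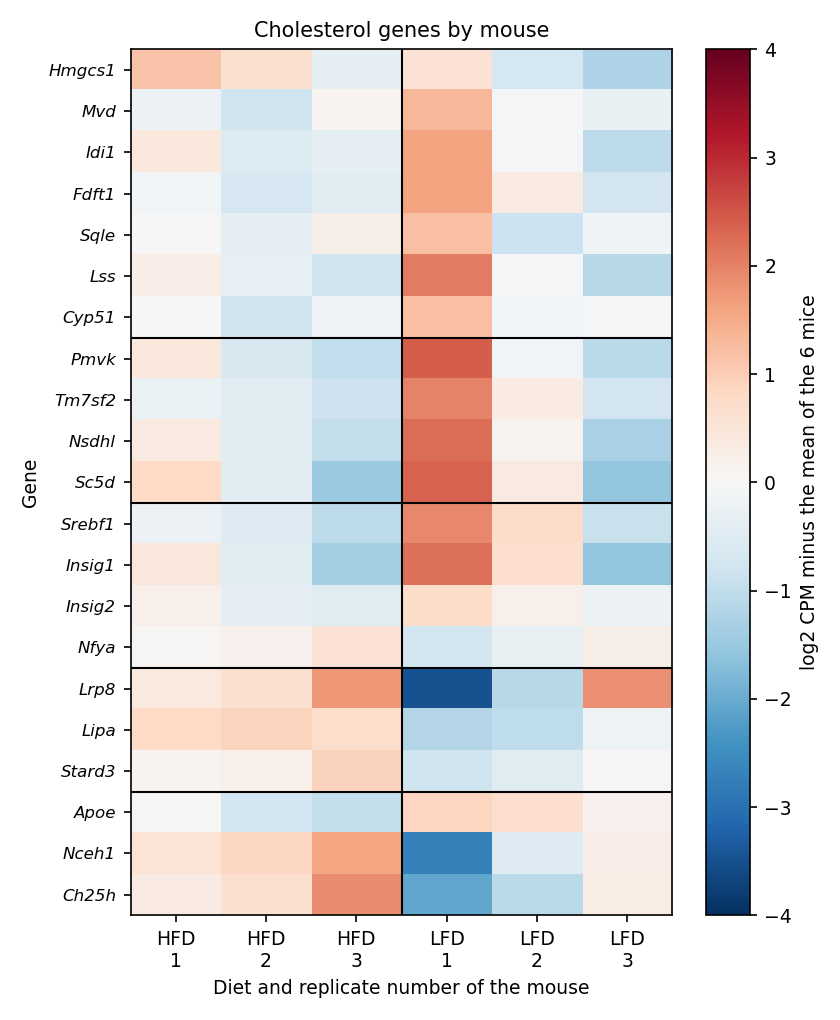
Log2 CPM of each gene minus its mean over the 6 mice (colour), for the 7 members and then the named genes of synthesis, regulation, uptake and lysosome, and efflux and storage, separated by lines. The column of LFD replicate 1 is high in the synthesis genes, *Srebf1* and *Insig1* and low in *Lrp8*, *Lipa*, *Nceh1* and *Ch25h*.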

How the data were processed

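RNA-Seq was performed on BAT of 3 HFD-fed and 3 LFD-fed mice, and diet and replicate number were taken from the labels. The authors trimmed reads (Trimmomatic 0.36) and estimated gene levels (RSEM 1.3.0) on GRCm38.p4 with Ensembl 84. The deposited expected counts are not normalized and divide reads shared between genes, and the deposited TPM values are divided by effective length and scaled to a fixed total. The strand setting is not given in the sources used here.

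Expected counts were rounded and tested with edgeR 4.0.16 in R 4.3.3 (quasi-likelihood test, TMM, edgeR's filter on low counts, Benjamini-Hochberg adjustment over 17668 genes). The prior count for log2 CPM was 2. Means ± SD are over mice. Calls required an adjusted p under 0.01 with a log2 fold change beyond 1.5 in either direction. The fits were tested on simulated data of 17668 genes with edgeR's gene-wise dispersions. With no gene changed, DESeq2 called 19 genes and edgeR's main fit 0. With 200 genes changed by a log2 fold of 4, DESeq2 recovered 189 with 33 wrong calls. The main fit of edgeR recovered 154 with 2 wrong calls.

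Same-numbered mice of the 2 diets deviated together across genes, with r of 0.229 to 0.522 in the 3 pairs. Mice of unlike number had r of -0.528 to 0.053. The numbers were therefore used as pairs and as a block in an alternative fit. The labels do not say that these mice were paired, and the pairing was read from the same data. Deviations were taken from the mean of each diet, so those of its 3 mice cancel. Positive r in same-numbered pairs thus lowers the r of unlike numbers by construction, and the contrast between them was not tested. The members and lists were chosen with earlier results of these data known. Named were all members, the 4 genes with the largest change in each of the 4 cholesterol lists and those whose diets did not overlap, the 5 genes most like the members' mean among genes whose symbol does not begin with Gm or end in Rik, and *Ucp1* and *Acta1*. Of these, 3 genes are not reported here. Positions are from GENCODE M21 (GRCm38). Alternatives were DESeq2 1.42.0, other normalizations and filters, other scales, looser thresholds, the block, genes left out and each mouse left out. Alternatives added after seeing the data left out both mice numbered 1, or LFD replicate 1 on the TPM scale.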

Additional observations from a re-analysis of the deposited data

How the results depend on the processing

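Over 20 alternatives, 185 of 200 values were alike, meaning the same direction with no call gained or lost (fits with a test), a shift under 1 SD between mice (values with no test) or a count within 1.5 times. Alike does not mean an unchanged size, and counts of calls that stayed at 0 are among these values. The median counted as alike at -0.03 with both mice numbered 1 left out, against -0.78 with all mice. *Mvd* counted as alike at -0.08 without LFD replicate 1, against -0.79. DESeq2 called 412 genes in all and 1 gene of the cholesterol lists (*Lipa*) where edgeR's quasi-likelihood test called 0, and no alternative called a member. With a replicate block, which pairs mice by number, the median of the members was -0.58 and 0 genes were called. *Hmgcs1* then had a log2 fold change of 0.92 (edgeR adjusted p = 0.155) and *Cyp51* one of -0.67 (edgeR adjusted p = 0.283), and the block changed no call, while genes at an unadjusted p under 0.05 went from 1851 to 3094.

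With each mouse left out, the median ranged from -1.08 (without LFD replicate 3) to 0.28 (without LFD replicate 1), *Hmgcs1* from 0.45 to 1.55, *Mvd* from -1.08 to -0.08, *Idi1* from -1.10 to 0.39, *Fdft1* from -1.50 to -0.27, *Sqle* from -0.69 to 0.46, *Lss* from -1.58 to 0.28 and *Cyp51* from -1.01 to -0.21. With both mice numbered 1 left out, chosen after seeing the data, *Idi1* was 0.046 and *Sqle* 0.44, and the median was -0.03. In log2(TPM + 1) without LFD replicate 1, also chosen after seeing the data, the median was -0.25 and *Idi1*, *Sqle* and *Lss* were -0.25, -0.018 and -0.050, so their change of sign without that mouse depended on the scaling. Relative to the mean of the brown adipocyte list, which was 7.10 log2 CPM on HFD and 5.57 on LFD, the median was -2.12, with *Hmgcs1* at -0.62, *Mvd* at -2.17, *Idi1* at -1.86, *Fdft1* at -2.33, *Sqle* at -1.63 and *Cyp51* at -2.21, so the direction of *Hmgcs1* depends on the scaling. With 69 to 235 counts per mouse, *Mvd* has the largest counting error of the members.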
